A study of Mus musculus with 6 samples.

Results

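The 9 marker genes of perivascular macrophages described here were Mrc1, Cd163, Lyve1, F13a1, Cbr2, Pf4, Ms4a7, Stab1 and Dab2. They were selected by symbol from a count table of 33000 genes, and each was found in 1 row. The table held TruSeq mRNA libraries from the frontal cortex of mice at 3 months of age. There were 3 libraries from WT C57BL/6 mice and 3 from homozygous GFAP-IL6 mice. The paper names the strain with the WT mice only. TruSeq covers mRNA along its full length. In the GFAP-IL6 mouse, a transgene under the promoter of the astrocyte gene Gfap makes astrocytes release the inflammatory cytokine IL6. The libraries were the reference set of a study on a cheaper protocol for sequencing the 3′ ends of mRNA.

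Perivascular macrophages lie in the space around the arteries and veins of the brain, between the vessel wall and the astrocyte end-feet. They are long-lived like microglia, the macrophages of the brain tissue itself, but they keep a scavenging programme that microglia lack. That programme takes up proteins, haemoglobin and matrix fragments from the fluid around vessels, and most of the 9 markers belong to it. Both cell types share a set of general macrophage genes, such as the growth factor receptor gene Csf1r. The libraries held RNA of whole tissue, so fewer cells of a type and less RNA per cell cannot be told apart.

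Of the 9 markers, 6 had enough reads for a test between GFAP-IL6 and WT mice, and 0 of these were called by edgeR, that is, had an adjusted p under 0.05 (2 had an unadjusted p under 0.05). The general macrophage genes of the same libraries rose. The markers' log2 fold changes by edgeR, GFAP-IL6 against WT, lay between 0.02 for Lyve1 and 0.50 for F13a1. All 10 genes of a list shared by all brain macrophages rose, with log2 fold changes from 0.57 to 2.24. Stab1 and Dab2 were the only tested markers whose GFAP-IL6 libraries all lay above the WT libraries.

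The WT libraries held 11.6 M to 16.9 M counts and the GFAP-IL6 libraries 7.56 M to 11.1 M. Levels are given as CPM, the counts of a gene per M counts of its library, scaled between libraries by the TMM method, and 3 counts corresponded to between 0.179 and 0.396 CPM. As a check of the labels, Il6 had 0 to 2 counts in each WT library and 10 to 24 in each GFAP-IL6 library. WT replicate 3 stood apart in choroid plexus markers, whose summed level was 616 CPM there and 5.23 to 56.5 CPM in the other 5 libraries. The markers of perivascular macrophages were lowest in sum in this library, at 32.1 CPM. Without this library the log2 fold changes of Mrc1 and Cd163 moved to 0.15 and 0.04, that of F13a1 to 0.19 and that of Lyve1 to -0.29, and their median over the 6 tested markers was 0.17.

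The order of the 9 markers was examined per unit of length, as TPM, a share of all transcripts of the library corrected for gene length, since longer transcripts yield more reads. Dab2 was the highest, with a mean of 6.86 ± 1.87 TPM (SD, n = 6 libraries), followed by Stab1 with 5.97 ± 0.922 TPM. Dab2 was above Stab1 in 5 of 6 libraries, so these neighbours were not separated in every library. Stab1 and Mrc1 were the only neighbours in this order whose ranges did not overlap. Mrc1 had a mean of 2.52 ± 0.769 TPM, and Cbr2, F13a1, Pf4, Cd163 and Lyve1 followed with means from 1.86 down to 1.01 TPM. Ms4a7 was the lowest, with a mean of 0.339 ± 0.195 TPM (SD, n = 6 libraries). These are low levels for the tissue, as 76.3% of all genes tested had a higher mean TPM than Dab2 and 97.8% a higher one than Lyve1.

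The markers lie on 9 different chromosomes, and their positions are given on the GRCm38 assembly as annotated by GENCODE M21. Mrc1 (ENSMUSG00000026712, chromosome 2, 14229392 to 14332057, plus strand), Cd163 (ENSMUSG00000008845, chromosome 6, 124304656 to 124330527, plus strand), Lyve1 (ENSMUSG00000030787, chromosome 7, 110850607 to 110863239, minus strand) and Stab1 (ENSMUSG00000042286, chromosome 14, 31139013 to 31168641, minus strand) encode receptors of the cell surface. F13a1 (ENSMUSG00000039109, chromosome 13, 36867178 to 37050244, minus strand), Cbr2 (ENSMUSG00000025150, chromosome 11, 120729489 to 120732114, minus strand), Pf4 (ENSMUSG00000029373, chromosome 5, 90772435 to 90773383, plus strand), Ms4a7 (ENSMUSG00000024672, chromosome 19, 11321039 to 11336146, minus strand) and Dab2 (ENSMUSG00000022150, chromosome 15, 6299788 to 6440712, plus strand) encode a secreted, an intracellular or another membrane protein. Overlap with exons of other genes was small. Stab1 shares 1.09% of its exon bases with Nt5dc2 on the opposite strand, F13a1 1.1% with the antisense gene Gm30489, and Dab2 2.87% with the pseudogene Gm18888. The strand setting of the counting was not given in the sources used here, so reads from these stretches may belong to either gene.

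Macrophage genes often carry a purine-rich PU box before their start, the core of the sites bound by the macrophage factor PU.1 and other ETS factors. RefSeq promoter windows on GRCm38.p6 were held for 8 of the 9 markers, all but Lyve1, and the 250 bases before each start were searched on both strands. The PU box, spelled GAGGAA, was present in 6 of these 8 genes, namely Cbr2, Dab2, F13a1, Mrc1, Pf4 and Stab1, against 25.9% of the 27025 genes with a window. Of the 8 genes, 3 had 2 annotated starts, and a match in either window was counted. The spelling TTCNNNGAA of a STAT site, the factor class that IL6 activates, was present in Dab2 alone, against 8.13% of all genes. The half-site TGCTGA of MAF factors was present in Dab2 and Stab1, against 18% of all genes. These are matches of letters and were not tested for binding. The following stretches are shown because they carry the spelling that most of the markers share, with the PU box or its reverse complement in capitals, read along the strand of the gene.
Stab1, chr14:31168649-31168688, minus strand: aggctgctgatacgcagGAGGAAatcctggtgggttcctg
F13a1, chr13:37050288-37050327, minus strand: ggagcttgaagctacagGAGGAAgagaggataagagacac
Cbr2, chr11:120732078-120732117, minus strand: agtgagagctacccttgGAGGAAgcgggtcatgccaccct
Mrc1, chr2:14229230-14229269, plus strand: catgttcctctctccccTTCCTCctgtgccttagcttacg
In the Stab1 stretch the lower-case letters just before the PU box also hold the MAF half-site. The Mrc1 stretch holds a further reverse complement of the PU box in lower case, which was counted as a match of its own. For Cbr2 the RefSeq and GENCODE starts differ. Its PU box lies 74 bases before the RefSeq start but inside the gene as placed by GENCODE above.

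The scavenger receptors were compared first. Mrc1 encodes the macrophage mannose receptor, which takes up glycoproteins. Its levels were 3.31, 5.85 and 3.64 CPM in WT replicates 1, 2 and 3, and 3.68, 5.15 and 6.92 CPM in GFAP-IL6 replicates 1, 2 and 3. The groups overlapped, because WT replicate 2 was above 2 of the GFAP-IL6 libraries. The log2 fold change was 0.26 ± 0.27 (SE), with a 95% interval from -0.33 to 0.86 and an adjusted p of 0.614 by edgeR. Without GFAP-IL6 replicate 3 it was 0.01, and without WT replicate 2 it was 0.57.

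Cd163 encodes the receptor for complexes of haemoglobin and haptoglobin. Its levels were 2.18, 2.09 and 1.63 CPM in WT and 2.15, 1.58 and 2.79 CPM in GFAP-IL6, so that the lowest and the highest value were both in GFAP-IL6. The log2 fold change was 0.17 ± 0.28 (SE), with a 95% interval from -0.44 to 0.77 and an adjusted p of 0.767 by edgeR. Its sign turned without GFAP-IL6 replicate 3, to -0.03.

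Lyve1 encodes a receptor for the matrix sugar hyaluronan, also known from lymphatic endothelium. It was measured from 8 to 16 counts in each WT library and from 7 to 10 in each GFAP-IL6 library. The levels were 1.31, 0.954 and 0.502 CPM in WT and 0.717, 0.924 and 1.12 CPM in GFAP-IL6, and all GFAP-IL6 values lay inside the range of the WT values. The log2 fold change was 0.02 ± 0.41 (SE), with a 95% interval from -0.88 to 0.92 and an adjusted p of 0.982 by edgeR. It was -0.29 without WT replicate 3 and -0.15 without GFAP-IL6 replicate 3.

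Stab1 encodes stabilin, a large receptor that clears modified lipoproteins and matrix fragments and is also made by sinusoidal endothelium outside the brain. Its levels were 16.98, 13.7 and 15.005 CPM in WT and 17.5, 17.4 and 19.8 CPM in GFAP-IL6. All GFAP-IL6 libraries lay above all WT libraries, by a narrow margin over WT replicate 1. The log2 fold change was 0.27 ± 0.12 (SE), with a 95% interval from 0.01 to 0.53, an unadjusted p of 0.0461 and an adjusted p of 0.237 by edgeR. At this level the interval does not reach the change of 1 on the log2 scale that the study asked of a differentially expressed gene.

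Dab2 encodes an adaptor that brings receptors into clathrin-coated pits, and is used by fibroblasts of the meninges and vessels as well. Its levels were 8.36, 9.78 and 9.17 CPM in WT and 11.03, 9.90 and 16.0 CPM in GFAP-IL6. The groups did not overlap, but the margin of GFAP-IL6 replicate 2 over WT replicate 2 was narrow. GFAP-IL6 replicate 3 stood well above the other libraries. The log2 fold change was 0.43 ± 0.17 (SE), with a 95% interval from 0.05 to 0.81, an unadjusted p of 0.0287 and an adjusted p of 0.194 by edgeR. Without GFAP-IL6 replicate 3 it was 0.21, with an adjusted p of 0.587.

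F13a1 encodes the catalytic subunit of coagulation factor XIII, an enzyme that crosslinks proteins and is carried by tissue macrophages and platelets. Its levels were 1.65, 3.22 and 1.13 CPM in WT and 2.33, 2.91 and 3.46 CPM in GFAP-IL6. WT replicate 2 lay among the GFAP-IL6 libraries, while the other WT libraries were below them. The log2 fold change was 0.50 ± 0.36 (SE), with a 95% interval from -0.28 to 1.28, and edgeR gave an adjusted p of 0.450. Leaving out WT replicate 2 moved it to 1.07, with an adjusted p of 0.0922, and leaving out WT replicate 3 moved it to 0.19.

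**Figure D1:**
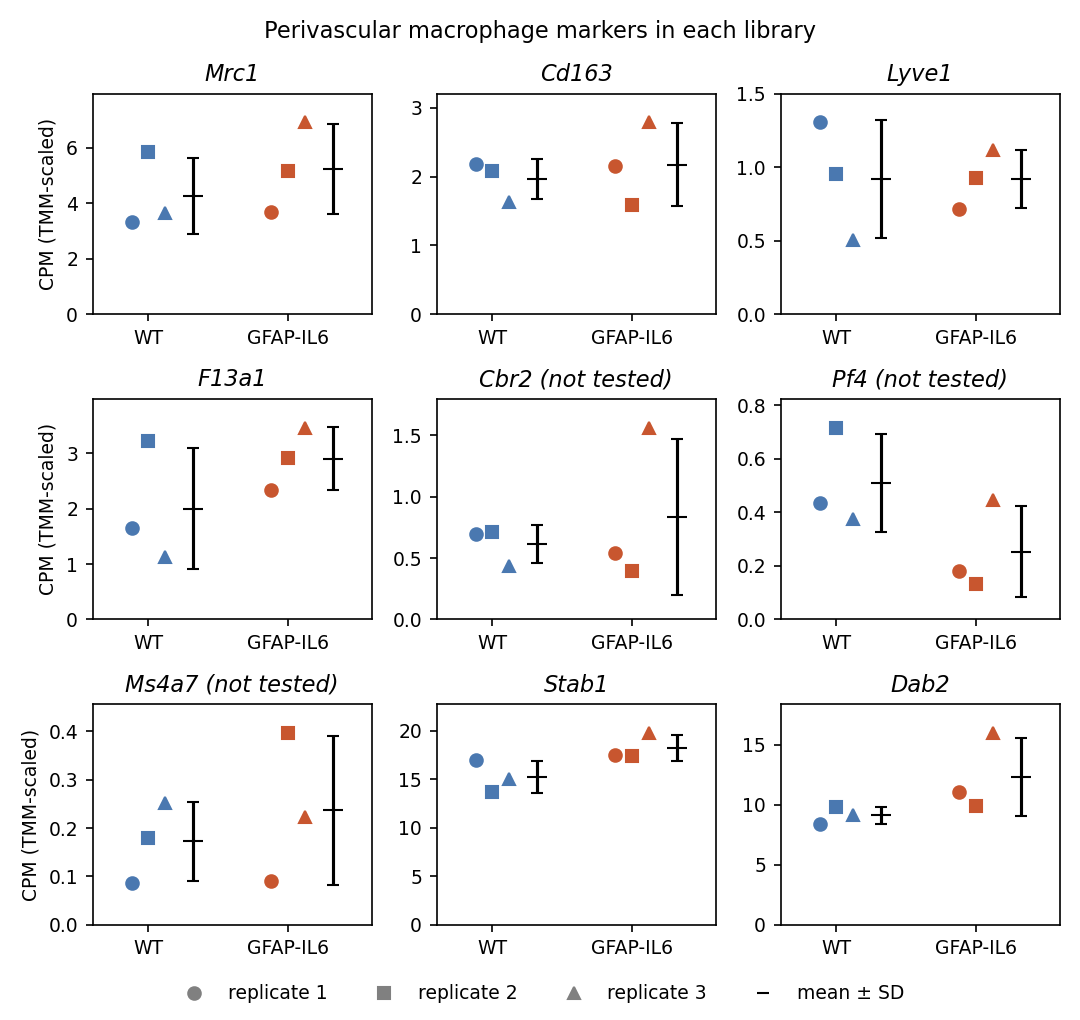
CPM of each of the 9 markers (vertical axes, linear and starting at 0) in the WT and GFAP-IL6 libraries, with a symbol per replicate and bars for the mean ± SD of 3 libraries. Only Stab1 and Dab2 have all GFAP-IL6 points above all WT points, and GFAP-IL6 replicate 3 holds the highest value of 6 of the 9 markers.

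The remaining 3 markers did not pass the filter on low counts and had no test in the comparison of all libraries. Cbr2, which encodes a carbonyl reductase, was counted 8, 12 and 7 times in the WT libraries and 6, 3 and 14 times in the GFAP-IL6 libraries. Summed over the group, this was 0.611 CPM in WT (95% exact Poisson interval 0.403 to 0.889) and 0.831 CPM in GFAP-IL6 (0.527 to 1.25), intervals that cover counting error only. The 14 counts of GFAP-IL6 replicate 3 were the most in any library. Pf4, which encodes the chemokine platelet factor 4, was counted 5, 12 and 6 times in the WT libraries and 2, 1 and 4 times in the GFAP-IL6 libraries. Summed over the group, its level was 0.521 CPM in WT (0.330 to 0.781) and 0.253 CPM in GFAP-IL6 (0.102 to 0.521), and the groups overlapped. Ms4a7, a membrane protein gene of the Ms4a cluster, was counted 1, 3 and 4 times in the WT libraries and 1, 3 and 2 times in the GFAP-IL6 libraries, so a difference was not detectable at this depth. When the filter was dropped, edgeR gave log2 fold changes of 0.43 ± 0.51 (SE) for Cbr2 and -1.005 ± 0.68 (SE) for Pf4, with adjusted p values of 0.720 and 0.490.

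With edgeR, 0 of the 6 tested markers were past an adjusted p of 0.05, where 2.86% of the 15341 genes tested were. No marker met the study's rule for a differentially expressed gene, which asks for a log2 fold change beyond 1 as well and was met by 1.38% of genes. At an unadjusted p under 0.05 there were 2 of the 6 markers, Stab1 and Dab2, and 20.5% of all genes. In 2 of the 6, the GFAP-IL6 libraries lay above all WT libraries, as they did in 13.8% of all genes. DESeq2 called 0 markers and gave 1 with an unadjusted p under 0.05, Dab2. With limma-voom, 0 were called and 2 had an unadjusted p under 0.05. Without WT replicate 3, without GFAP-IL6 replicate 3 and at equal depth, 0 of the markers had an unadjusted p under 0.05 by edgeR. Without WT replicate 2 there were 3, Dab2, Mrc1 and F13a1, and leaving out each of the other 3 libraries left 1. The median log2 fold change of the 6 tested markers was 0.27, against -0.004 over all genes tested, and all 6 estimates were above 0. Summed over all 9 markers, the level was 35.0, 37.2 and 32.1 CPM in WT and 38.2, 38.8 and 52.2 CPM in GFAP-IL6, with Stab1 and Dab2 holding most of it. These sums did not overlap between the groups, with a narrow gap between WT replicate 2 and GFAP-IL6 replicate 1. The median log2 fold change was 0.11 without GFAP-IL6 replicate 3 and 0.39 without GFAP-IL6 replicate 1.

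In GFAP-IL6 replicate 3, the library with the highest value of 6 of the 9 markers, summed markers of meningeal and perivascular fibroblasts were also highest, at 200.05 CPM. They were 134 and 140 CPM in the other GFAP-IL6 libraries and 135 to 174 CPM in WT. A large part of each sum was Pdgfra, at 62.6 CPM in GFAP-IL6 replicate 3 and 47.6 to 58.4 CPM in the other libraries. Pdgfra was named after its values were seen, and whether its reads came from fibroblasts was not tested. By edgeR, 0 of the 10 fibroblast markers were called, 1 was lower at an unadjusted p under 0.05, and their median log2 fold change was 0.12. Endothelial markers summed to 209 to 230 CPM in WT and 322 to 367 CPM in GFAP-IL6, and 6 of 10 were called higher, led by Flt1, Ly6c1, Cldn5 and Esam. Without GFAP-IL6 replicate 1, 3 of 10 were called. Of 8 pericyte and smooth muscle markers, 1 was called, Rgs5, which rose by 0.42 on the log2 scale. In sum, the pericyte and smooth muscle markers were at 196 to 238 CPM in WT and 263 to 300 CPM in GFAP-IL6, without overlap. The part of these cells in the values of Dab2, Stab1 and Lyve1 was not tested. For Lyve1, no library held more than 2 counts of the lymphatic endothelial marker Ccl21a, and 0 of the 4 lymphatic markers tested were called by edgeR, with 1 at an unadjusted p under 0.05. That gene was the growth factor receptor gene Flt4, at 1.85 to 3.08 CPM in WT and 3.96 to 4.93 CPM in GFAP-IL6, with a log2 fold change of 0.87 and an adjusted p of 0.0791. Prox1, Pdpn and Reln, also on the lymphatic list, were at 8.19 CPM or more in every library, with overlapping groups. Like Flt4, they were named after their values were seen. Whether these levels came from lymphatic endothelium or from other cells of the cortex was not tested. For Pf4 and F13a1, no library held more than 3 counts of the platelet genes Ppbp, Gp9 or Gp6. Summed platelet markers were 11.8 to 13.6 CPM in WT and 12.1 to 14.6 CPM in GFAP-IL6. Most of each sum was Gp1bb, at 8.80 to 10.1 CPM in WT and 8.25 to 9.94 CPM in GFAP-IL6. Itga2b, also on the platelet list, was at 1.88 to 2.26 CPM in WT and 2.64 to 3.46 CPM in GFAP-IL6, without overlap. Its log2 fold change was 0.52, with an adjusted p of 0.245 by edgeR. Gp1bb and Itga2b were named after their values were seen, and whether their reads came from platelets was not tested.

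The markers were then set against genes shared by all brain macrophages. This list held 10 genes, among them the integrin gene Itgam, the leukocyte phosphatase gene Ptprc, Csf1r and the macrophage antigen gene Adgre1. All 10 were called higher in GFAP-IL6, with a median log2 fold change of 1.06. Ptprc rose from 4.37 ± 0.388 to 20.8 ± 3.60 CPM (SD, n = 3 each), a log2 fold change of 2.24 ± 0.16 (SE). Csf1r rose from 113 ± 9.01 to 206 ± 17.2 CPM, a log2 fold change of 0.87 ± 0.09 (SE), and Adgre1 from 7.003 ± 0.432 to 16.4 ± 1.44 CPM, 1.22 ± 0.13 (SE). Without GFAP-IL6 replicate 3, 6 of the 10 were called. Of 10 microglia markers, 5 were called higher, among them Olfml3, Tmem119 and Cx3cr1, with a median of 0.52 over the list. The other 5 microglia markers, listed after their values were seen, did not pass the test. Among these the log2 fold changes were 0.40 for Siglech, 0.39 for P2ry13 and 0.34 for Sall1, each with groups that did not overlap, and -0.22 for Gpr34 and -0.27 for P2ry12, with overlapping groups.

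**Figure D2:**
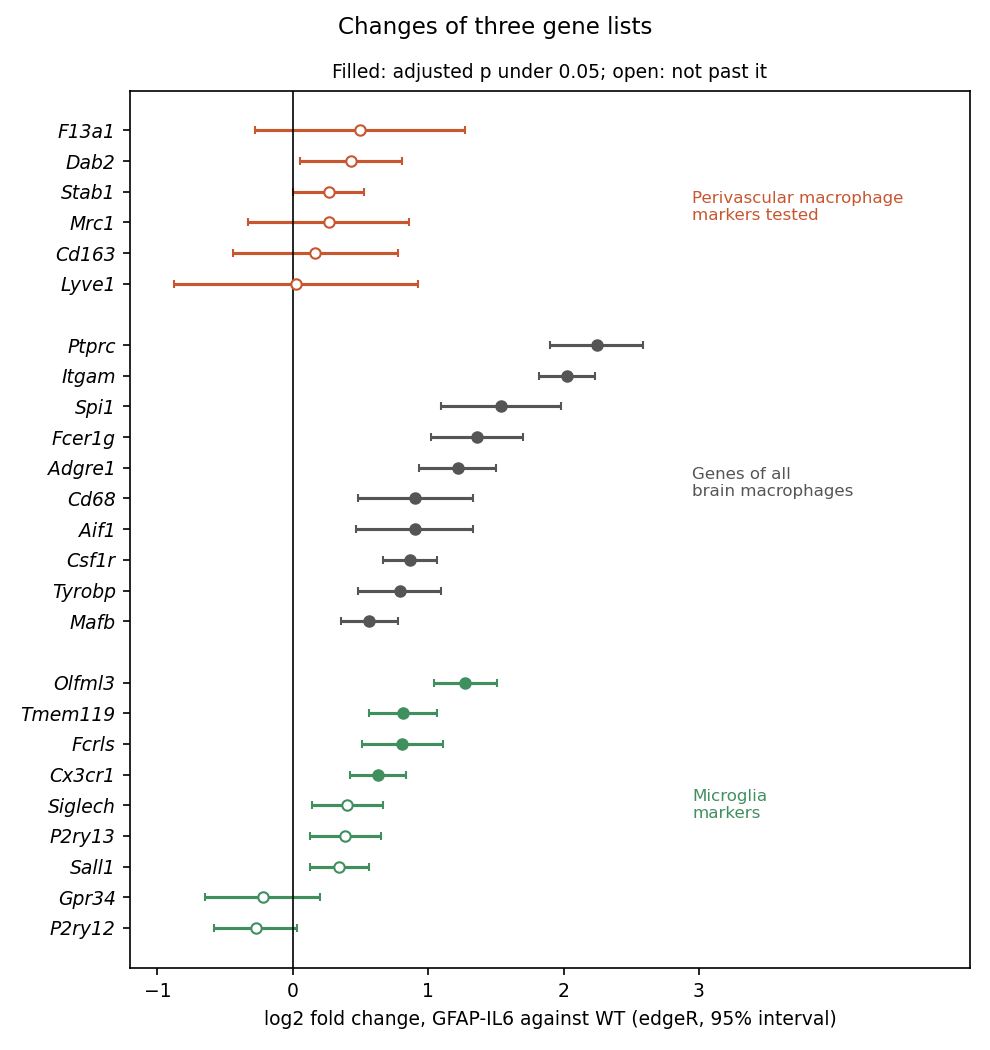
Log2 fold change of GFAP-IL6 against WT by edgeR (horizontal axis) with 95% intervals, for the 6 tested perivascular macrophage markers, the 10 genes of all brain macrophages and 9 of the microglia markers, filled where the adjusted p was under 0.05. The perivascular markers lie between 0.02 and 0.50 with open points, and the genes of all brain macrophages between 0.57 and 2.24 with filled points.

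Relative to the summed CPM of the 10 general macrophage genes of the same library, the 9 perivascular markers amounted to 18.3%, 17.9% and 14.4% in WT and 8.68%, 9.26% and 10.5% in GFAP-IL6. The GFAP-IL6 mean of this proportion was 0.562 of the WT mean, and the groups did not overlap. Taken singly, 6 of the 9 markers were lower with no overlap on this reference, and F13a1, Cbr2 and Ms4a7 overlapped. The share of all genes that were lower with no overlap on this reference was not computed. The reference itself rose from a mean of 207 CPM in WT to 452 CPM in GFAP-IL6. Scaled to it, 94.5% of all genes were called lower by edgeR. F13a1 stood at 0.865%, 1.55% and 0.508% in WT and at 0.530%, 0.693% and 0.695% in GFAP-IL6. Stab1 alone amounted to 8.88%, 6.57% and 6.74% in WT and to 3.97%, 4.16% and 3.97% in GFAP-IL6. Mrc1 stood at 1.73%, 2.81% and 1.64% in WT and at 0.835%, 1.23% and 1.39% in GFAP-IL6. Relative to the 10 microglia markers, the 9 markers amounted to 11.1%, 8.97% and 8.69% in WT and to 7.28%, 7.47% and 8.79% in GFAP-IL6, and the groups overlapped. Taken singly, only Pf4 was lower with no overlap on the microglia reference. It stood at 0.137%, 0.173% and 0.102% in WT and at 0.0342%, 0.0254% and 0.0751% in GFAP-IL6, from at most 12 counts in any library. The share of all genes was not computed here either.

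The difference between each marker and these references was tested by fitting all genes again with libraries scaled to the reference in place of TMM, a scaling chosen after the data were seen. Scaled to the general macrophage genes, all 6 tested markers were lower in GFAP-IL6 at an adjusted p under 0.05 by edgeR, as were 94.5% of all genes, whose median moved to -1.13. The log2 differences were -0.86 ± 0.23 (SE) for Mrc1, -0.96 ± 0.31 for Cd163, -1.10 ± 0.43 for Lyve1, -0.63 ± 0.30 for F13a1, -0.87 ± 0.16 for Stab1 and -0.70 ± 0.18 for Dab2. Across the fits that left out 1 library, 4 to 6 markers were called lower, as were 91.8% to 92.9% of all genes. Lyve1 was no longer called without WT replicate 1 (adjusted p 0.128) or GFAP-IL6 replicate 1 (0.0661), and F13a1 without WT replicate 2 (-0.05, adjusted p 0.886) or GFAP-IL6 replicate 1 (0.157). A lower value on this scale is thus what nearly all genes of the cortex had, and is not particular to the markers. Scaled to the microglia markers, 0 of 6 tested markers were called by edgeR. Of all genes, 72.6% were called lower, and their median moved to -0.58. The differences of the markers lay between -0.54 ± 0.44 (SE) for Lyve1 and -0.05 ± 0.32 for F13a1. Their adjusted p values by edgeR ran from 0.0848 for Stab1 to 0.899 for F13a1. Without WT replicate 2, edgeR called Stab1 lower on this scale, at -0.48 ± 0.17 (SE) with an adjusted p of 0.00572. In that fit 81.0% of all genes were called lower, and their median was -0.67, below the value of Stab1.

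**Figure D3:**
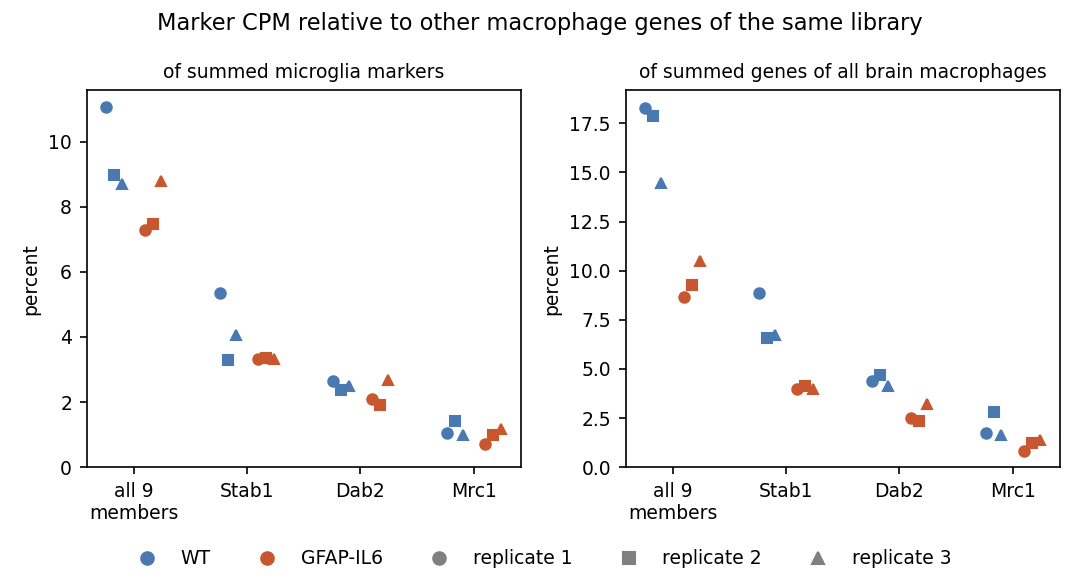
CPM of all 9 markers in sum and of Stab1, Dab2 and Mrc1, as a percent of summed microglia markers (left) and of summed genes of all brain macrophages (right) in the same library, with a symbol per replicate. On the right the 3 GFAP-IL6 libraries lie below the 3 WT libraries for each quantity, while on the left the groups overlap. The reference on the right itself rose, and scaled to it 94.5% of all genes were called lower by edgeR. F13a1, Cbr2 and Ms4a7, which overlap on both references, are not plotted. Also not plotted are Cd163 and Lyve1, which overlap on the microglia reference only, and Pf4, which is lower without overlap on both.

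Further genes of perivascular and other border macrophages were mostly too low to test. Of 17 such genes, 4 passed the filter and 7 had at most 3 counts in every library, among them the lectin gene Cd209f and the phagocytic receptor genes Vsig4 and Timd4. The label of the markers could thus be checked with few other genes of these cells. The list was called higher in 1 gene, Ms4a6c, which rose from 0.960 ± 0.204 to 2.64 ± 0.227 CPM (SD, n = 3 each), or by 1.43 ± 0.28 (SE) on the log2 scale, for which edgeR gave an adjusted p of 0.0138. That call was lost without WT replicate 3, without each of the GFAP-IL6 libraries and at equal depth. Tgfbi, Colec12 and Maf, the other genes tested, had log2 fold changes of 0.22, 0.12 and -0.03 and were not called. Folr2, a folate receptor gene used to mark these cells, was counted 7, 11 and 13 times in the WT libraries and 9, 4 and 2 times in the GFAP-IL6 libraries. Siglec1, which encodes sialoadhesin, was counted 0, 1 and 4 times in the WT libraries and 9, 9 and 4 times in the GFAP-IL6 libraries. Its groups did not overlap, at 0 to 0.251 CPM in WT and 0.447 to 1.19 CPM in GFAP-IL6. Both genes failed the filter on low counts. With the filter dropped, edgeR called 2 of the genes on this list, Ms4a6c and Siglec1, the latter with a log2 fold change of 2.72 ± 0.73 (SE) and an adjusted p of 0.0135, while Folr2 had -0.38 ± 0.53 (SE) and an adjusted p of 0.746. Tgfbi, Colec12, Maf, Folr2 and Siglec1 were chosen for mention after their values were seen.

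Ms4a7 belongs to a cluster of similar membrane protein genes, whose other members were also examined. Of 9 such genes, 3 were tested and 2 were called higher. Ms4a6d rose from 0.920 ± 0.136 to 4.51 ± 0.798 CPM (SD, n = 3 each), a log2 fold change of 2.26 ± 0.27 (SE), and Ms4a6c is given above. The counts of such relatives are uncertain to the extent that reads shared by several of them were left out. Among 14 scavenger receptor and haem-handling genes, 6 were tested and 0 were called by edgeR, with 2 at an unadjusted p under 0.05 and a median log2 fold change of 0.25. No library held more than 3 counts of the receptor genes Marco, Olr1 and Clec7a or of Cd5l, a secreted macrophage protein.

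Most markers of blood-borne leukocytes had few counts. The monocyte genes Ly6c2, Plac8 and Chil3 and the T cell genes Cd3d and Cd3e stayed at or below 3 counts in each library, although Cd3e had 0 counts in each WT library and 1 to 3 in each GFAP-IL6 library. The monocyte receptor gene Ccr2 had 2 to 11 counts in WT and 5 to 14 in GFAP-IL6, and its CPM did not overlap, at 0.174 to 0.656 in WT and 0.660 to 1.45 in GFAP-IL6. It failed the filter, and without the filter edgeR estimated a log2 difference of 1.27 ± 0.49 (SE) at an adjusted p of 0.128. The matrix gene Vcan, used by many cells of the cortex, was at 22.8 to 28.0 CPM in all 6 libraries and was not called. Ccr2, Cd3e and Vcan were singled out after their values were seen. Of 9 monocyte and granulocyte markers and 9 lymphocyte markers, 1 each passed the filter and 0 were called. Of 6 dendritic cell markers, 3 were tested and 1 was called, the integrin gene Itgax, which activated microglia also use. Itgax rose from 0.212 ± 0.111 to 1.88 ± 0.284 CPM (SD, n = 3 each). Red blood cell genes gave 0 calls among 5 tested, and their summed level was 30.5 to 39.5 CPM in WT and 26.0 to 35.7 CPM in GFAP-IL6. Choroid plexus markers gave 0 calls among 4 tested, with 3 at an unadjusted p under 0.05 and a median log2 fold change of -2.01, and their level rested on WT replicate 3.

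**Figure D4:**
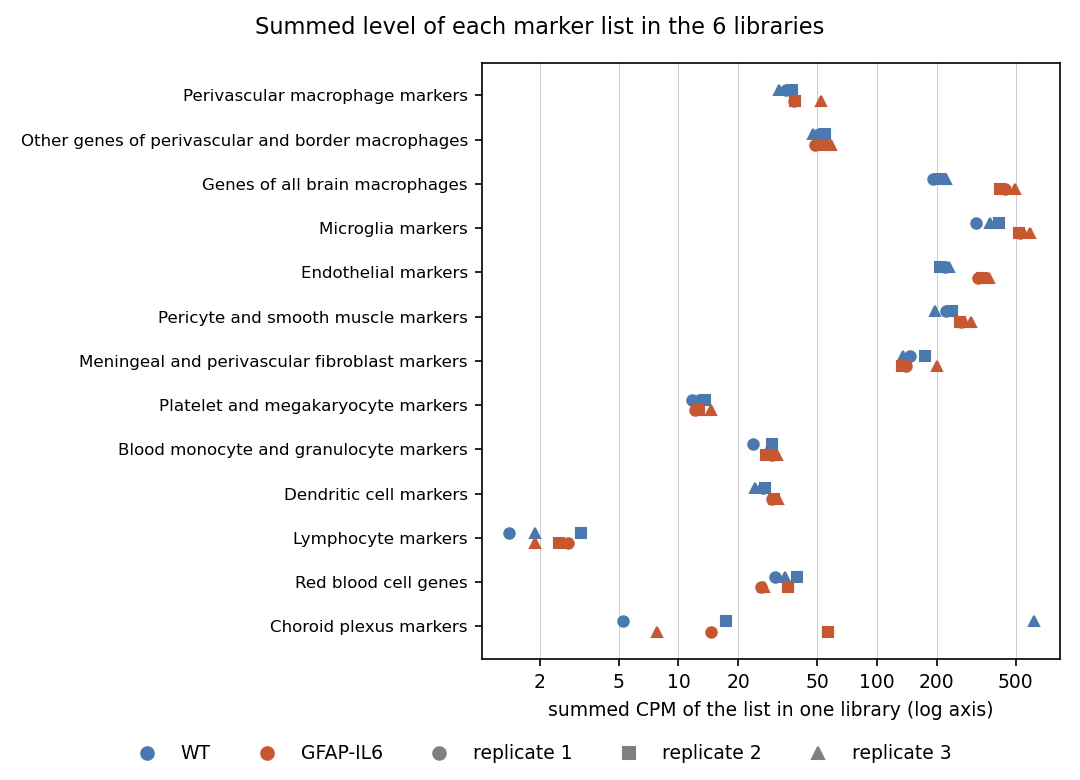
Summed CPM of each marker list (horizontal log axis) in each library, with a symbol per replicate. The genes of all brain macrophages, microglia markers and endothelial markers of the GFAP-IL6 libraries lie apart from WT. So do the pericyte and smooth muscle markers and the dendritic cell markers. The perivascular macrophage markers lie at 32.1 to 37.2 CPM in WT and 38.2 to 52.2 CPM in GFAP-IL6 with a narrow gap. The choroid plexus markers of WT replicate 3 stand alone at 616 CPM.

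The 6 tested markers moved together to a moderate degree across the 6 libraries. Pearson's r of log2 CPM was above 0 in all 15 pairs of markers, with a median of 0.574 and a range from 0.207 to 0.841. F13a1 was closest to the mean of the other markers, with r = 0.805, and Stab1 the farthest, with r = 0.512. Among other genes tested, the pattern most like the mean of the markers was that of Tmem229b, with r = 0.987, followed by Nfil3 (0.982), the unnamed locus RP24-294K15.4 (0.981), Bgn (0.979) and Slc15a4 (0.976). Bgn encodes the matrix proteoglycan biglycan and Nfil3 a transcription factor. These values describe only 6 libraries, which differ in group and in depth, and the 5 genes were not called between the groups. The 5 genes were picked for the highest r among the 15341 genes tested, so their values are high by selection. Pairs of other genes were not examined for the r they show in these libraries.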

How the data were processed

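RNA-seq counts were analysed for the frontal cortex of 3 WT and 3 GFAP-IL6 mice, grouped and numbered by their titles. The authors deposited raw whole-number counts per gene, 1 column per library, beside a gene length. Per the study's methods, reads were aligned with STAR to mm10 and counted over GENCODE genes with featureCounts. The submitters' processing notes name STAR 2.4 and, for these mouse samples, the human build hg19. The gene identifiers are of mouse. Whether strand was used was not given in the sources used here.

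The quasi-likelihood F-test of edgeR 4.0.16 (R 4.3.3) was applied with TMM scaling, filterByExpr and Benjamini-Hochberg adjustment over 15341 genes. Called means an adjusted p under 0.05. Standard errors were derived from the F statistic, and TPM used the deposited lengths. DESeq2 1.42.0 and limma 3.58.1 served as alternatives, along with other scalings, filters, equal depth, a replicate block and leaving out each library. The edgeR fit, with and without the filter and with the replicate block, was checked on simulated counts, as were DESeq2 and limma-voom. The other scalings, among them those to macrophage or microglia genes, were not. Nor were the filter on mean CPM, equal depth and the fits that left out a library. Correlations used log2 CPM with a prior count of 2. All 15 pairs of libraries differed by more than sampling noise, with a chi-square of 2.26 to 21.0 per degree of freedom. Nothing in the labels states that replicates of a group are separate mice, although the study speaks of 3 mice per genotype, so p values measure the spread between these libraries. Total counts were lower in each GFAP-IL6 library than in each WT library (two-sided exact permutation test, p = 0.1, which is the minimum for 3 against 3).

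The 9 markers and all lists were chosen with earlier results of these data known. All 9 markers are named. Of each other list, up to 4 called genes with the smallest adjusted p and markers at 3 counts or fewer in every library are named. The 5 genes most like the mean of the markers are also given. Some genes of the lists are counted with their list but not reported here by name.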

Additional observations from a re-analysis of the deposited data

How the results depend on the processing

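The number of markers called was 0 in each of the 15 alternatives, and so was the number of differentially expressed markers. The number tested was 6 in most of them, 5 when a mean CPM of at least 1 was asked or at equal depth, where Lyve1 was left out, 8 in both DESeq2 settings and 9 without the filter. Leaving out each of the 6 libraries in turn gave log2 fold changes between 0.01 and 0.57 for Mrc1, between -0.035 and 0.32 for Cd163, between -0.29 and 0.31 for Lyve1, between 0.19 and 1.07 for F13a1, between 0.19 and 0.35 for Stab1 and between 0.21 and 0.55 for Dab2. The median over the 6 tested markers was between 0.11 and 0.39 in these fits. The estimates of Mrc1, F13a1, Stab1 and Dab2 stayed above 0 in all alternatives run. The lowest adjusted p in any alternative was 0.0922, for F13a1 without WT replicate 2.

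Same-numbered libraries were not paired by the labels, and their deviations from the group means had correlations of 0.0993, 0.0183 and 0.0178 for numbers 1, 2 and 3. WT replicate 2 was closer to GFAP-IL6 replicate 3 than to its own number. With the replicate number as a block, 0 markers were called and the median over the 6 tested markers was 0.29, while the number of genes called moved from 439 to 750. That number was 1154 without the filter on low counts, 1061 without WT replicate 1, 282 without GFAP-IL6 replicate 2 and 187 without GFAP-IL6 replicate 3. Differentially expressed genes numbered 211, 48 with the prior of DESeq2, which shrinks fold changes by construction, and 129 without GFAP-IL6 replicate 3. The depth limits what can be said of Cbr2, Pf4 and Ms4a7, which had at most 14, 12 and 4 counts in any library.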
